A study of Oryza sativa Japonica Group with 9 samples.

Results

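OsWNK4 and OsWNK9 are rice genes of the WNK family of protein kinases. They were followed over 9 arrays of 3 stages: egg cells before fertilization, fertilized eggs about 1 hour after pollination (eggs at about 1 hap) and zygotes about 3 hours after it (3 hap), with 3 biological replicates per stage. A probe set is a group of short oligonucleotides that together read 1 transcript, and 3 probe sets are annotated to these genes. OsWNK4 has 1 of them, and OsWNK9 has 2, called S1 and S2 here after the endings of their names. No further probe set of either gene was in the array's annotation, so the members are 2 genes and 3 probe sets of 57194 rice probe sets. Both genes were chosen by measured stage differences in these same arrays. OsWNK4 was selected on its difference between zygote and fertilized egg, and OsWNK9 on its difference between fertilized egg and egg cell with array quality weights, which let noisier arrays count less. Those differences are therefore given as a description, with no test.

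All plants were wild-type Oryza sativa, japonica subspecies, cultivar Katy, grown in greenhouses under long days, and the later stages were pollinated in planta. Each sample pooled about 100 cells that had been taken out of excised ovules without enzymes, and its RNA went through 2 cycles of amplification before labelling. The samples are bulk RNA, so fewer transcript molecules per cell and fewer cells holding the transcript cannot be told apart. The groups follow the titles, the stage labels and the series text, while the description field of the labels speaks of seedlings, pollen and sperm cells for these stages, in their order.

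WNK kinases ("with no lysine") are serine/threonine kinases that lack the catalytic lysine at the place where other kinases carry it. In animals they sense chloride and regulate cation-chloride cotransporters. In Arabidopsis, WNK1 phosphorylates a pseudo-response regulator of the circadian clock, and WNK8 phosphorylates a subunit of the vacuolar proton pump and the G-protein regulator RGS1. Arabidopsis wnk mutants flower at altered times. The roles of OsWNK4 and OsWNK9 in rice egg cells are not assumed here.

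The arrays had been scaled to a common trimmed mean of 500.1, so signals are relative within an array. The median rice signal was 36.5 to 50.9 in egg cells, 47.3 to 95.4 in eggs at about 1 hap and 54.0 to 218 in zygotes. The log2 ratio of poly-A spike RNA, added before amplification, to hybridization spike RNA was -4.65 to -3.71 in egg cells, -1.57 to -0.97 in eggs at about 1 hap and -1.44 to -0.61 in zygotes. Zygote replicate 2 stood apart: its correlations with the remaining arrays had a median of 0.694, while those of each other array had medians of 0.866 to 0.929. Of the egg and sperm cell markers only WOX8 was matched, by a synonym of the gene listed as OsWOX13. It had 244 to 285 in egg cells, 179 to 316 in eggs at about 1 hap and 302 to 456 in zygotes. Whether that gene marks egg cells was not tested, so the labelled cell type was not checked with these markers. The 5 leaf and seedling genes matched (9 probe sets, none at 0) summed to 14930 to 25129 in egg cells, 17003 to 22498 in eggs at about 1 hap and 3808 to 16943 in zygotes. The 3 ovule wall and nucellus genes matched (none at 0) summed to 11238 to 13140, 9701 to 14123 and 10452 to 16254 in the same order. The pollen marker matched, INV4, listed as OsCIN3, had 21.5 to 26.7, 4.87 to 111 and 25.3 to 485 in that order. The part of other tissues in the results below was not tested.

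**Figure D1:**
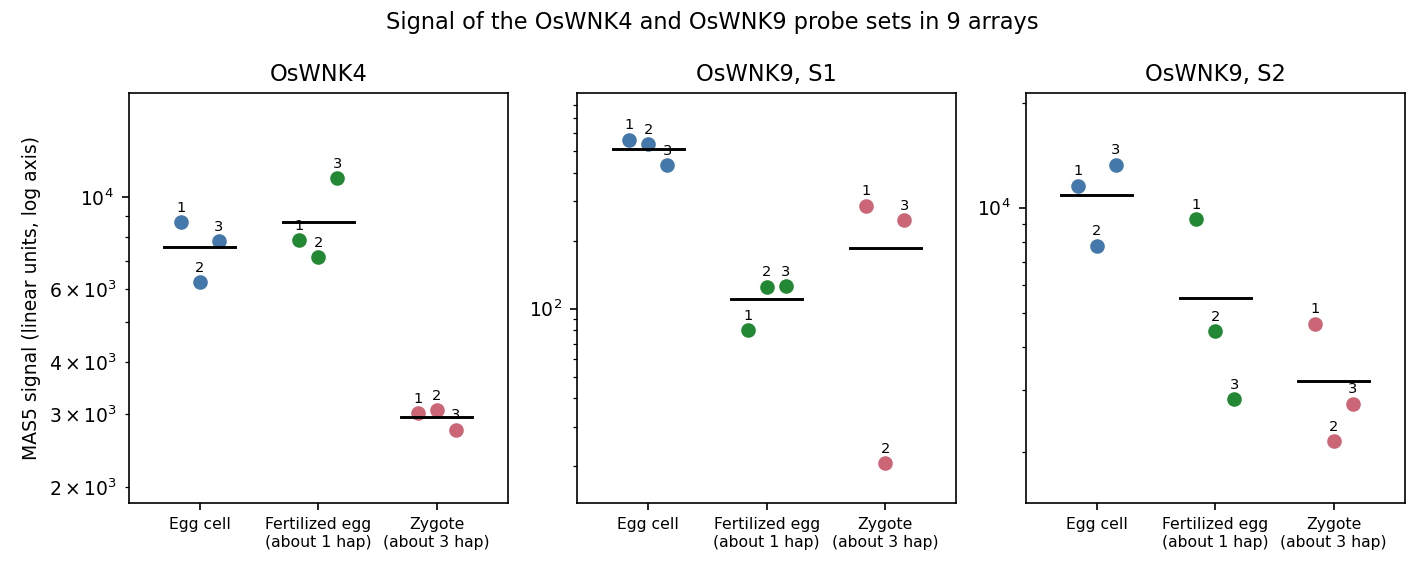
Deposited signal (linear MAS5 units on a log axis) of the OsWNK4 probe set and of the OsWNK9 probe sets S1 and S2 in each of 9 arrays, by stage. Numbered points are replicates and black bars are stage means; the 3 zygotes lie at 2746 to 3065 for OsWNK4, and all 6 later arrays lie below the egg cells for S1.

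OsWNK4 was bright in all 9 arrays. Its signal was 8703, 6224 and 7813 in egg cells, 7870, 7158 and 11106 in eggs at about 1 hap and 3009, 3065 and 2746 in zygotes. All 3 zygotes lay below all 6 other arrays, and fertilized eggs and egg cells overlapped. The stage means were 7580 ± 1256 in egg cells, 8711 ± 2104 in eggs at about 1 hap and 2940 ± 170 in zygotes (SD, n = 3 each). Among the 28597 probe sets kept for testing, that is those with a mean signal of at least 78.9, 2.21% had all 3 zygotes below the other 6 arrays. This order is part of what chose the gene, so nothing is read from it.

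The OsWNK4 difference that selected the gene, zygote minus fertilized egg, was -1.54 ± 0.27 on the log2(signal + 15) scale (SE, limma fit of 9 arrays), a 2.90-fold lower signal with an interval of -2.13 to -0.95. For this contrast 0 of 28597 kept probe sets, 0%, passed limma's adjusted threshold of 0.05, although 2993 had an unadjusted p below it, and 6.12% had all 3 zygotes below all 3 fertilized eggs. The contrast of zygote minus egg cell shares its zygote arrays with that one, so its tests are not independent of the gene's choice. It gave -1.35 ± 0.27 (SE), 2.55-fold lower in zygotes, with an interval of -1.94 to -0.76. This did not pass the threshold (limma adjusted p = 0.132), and 57 of the kept probe sets had a smaller p. In that contrast 20 probe sets, 0.0699%, passed, and 8.74% had all 3 zygotes below all 3 egg cells, as OsWNK4 did.

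Fertilized egg minus egg cell was 0.19 ± 0.27 for OsWNK4 (SE; interval -0.40 to 0.78; limma adjusted p = 0.892). This contrast shares its fertilized egg arrays with the selecting one, so its test is not independent of the gene's choice. With the spike ratio as a covariate the difference was 0.69 ± 1.06, and without egg replicate 1 it was 0.29 ± 0.33 (SE). How small the difference is thus depends on the setting. With array quality weights zygote minus egg cell was -1.49 ± 0.25 (SE; limma adjusted p = 0.00863), in a fit that called 1938 probe sets, 6.78%. Without zygote replicate 1 it was -1.37 ± 0.30 (SE; limma adjusted p = 0.0440), in a fit that called 799 probe sets, 2.79%. Array weights ran from 0.156 in zygote replicate 2 to 3.46 in egg replicate 3.

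The zygotes varied little among themselves in OsWNK4 signal. A small spread in zygotes is part of what makes the selecting contrast stand out, so the spread is given as a description. The coefficient of variation was 16.6% in egg cells, 24.2% in eggs at about 1 hap and 5.79% in zygotes. On the log2 scale the SD was 0.08 in zygotes, against a median of 0.45 over the 1000 probe sets nearest in mean signal. In fertilized eggs and egg cells the SD of OsWNK4 was 0.33 and 0.25, against medians of 0.31 and 0.22 for such probe sets. The percentile of OsWNK4 among all probe sets of an array was 97.2 to 98.3 in egg cells, 97.7 to 98.5 in eggs at about 1 hap and 93.3 to 95.4 in zygotes. Zygote replicate 2, which differed most from other arrays over all probe sets, had a signal of 3065 beside 3009 and 2746 in the other zygotes, and the zygote mean without it was 2878.

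Both OsWNK9 probe sets had their highest mean in egg cells. For S1 the signal was 561, 536 and 431 in egg cells, 80.2, 125 and 125 in eggs at about 1 hap and 286, 20.7 and 247 in zygotes. All 3 fertilized eggs and all 3 zygotes lay below all 3 egg cells, an order that 3.66% of kept probe sets had and that the selection of the gene fixed in part. Zygotes lay on both sides of the fertilized eggs. The means were 509.5 ± 68.7 in egg cells, 110.2 ± 26.0 in eggs at about 1 hap and 185 ± 143 in zygotes (SD, n = 3 each). The order of means was thus egg cell, zygote, fertilized egg, and the last 2 were not separated beyond their spread.

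The difference that selected OsWNK9, fertilized egg minus egg cell, was -2.02 ± 0.38 for S1 with array quality weights (SE). Without weights it was -2.08 ± 0.73 (SE, limma; interval -3.66 to -0.51), a 4.23-fold lower signal in fertilized eggs. Of all kept probe sets 13, or 0.0455%, passed the adjusted threshold in this contrast, and 11.1% had all 3 fertilized eggs below all 3 egg cells. These shares are given beside S1 as its background, and nothing is read from them. Zygote minus egg cell shares its egg arrays with the selecting contrast, so its test is not independent of the gene's choice. It was -1.88 ± 0.73 for S1 (SE; limma adjusted p = 0.269), 3.69-fold lower in zygotes, with an interval of -3.46 to -0.31. Without zygote replicate 2 it was -0.89, and the zygote mean was 267 in place of 185. Zygote minus fertilized egg shares its fertilized egg arrays with the selecting contrast, so its test is not independent either. It was 0.20 ± 0.73 for S1 (SE; limma adjusted p = 0.935). The interval of -1.38 to 1.77 covers a change of more than 2-fold either way. The sign of this difference turned when zygote replicate 1 (-0.35) or zygote replicate 3 (-0.25) was left out. It also turned when arrays were centred on their medians (-0.02).

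On S2 the stages were separated less clearly. Its signal was 11573, 7775 and 13269 in egg cells, 9263, 4437 and 2829 in eggs at about 1 hap and 4651, 2146 and 2751 in zygotes. All 3 zygotes lay below all 3 egg cells, as for 8.74% of kept probe sets, while fertilized eggs overlapped both other stages. The means were 10873 ± 2813 in egg cells, 5510 ± 3348 in eggs at about 1 hap and 3182 ± 1307 in zygotes (SD, n = 3 each), so they stood in the order of the stages, but neighbouring stages were not separated beyond their spread.

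Fertilized egg minus egg cell, the contrast that selected the gene, was -1.12 ± 0.43 for S2 (SE, limma; interval -2.04 to -0.19), 2.17-fold lower in fertilized eggs. Zygote minus fertilized egg was -0.69 ± 0.43 (SE; interval -1.62 to 0.23; limma adjusted p = 0.577). It shares its fertilized egg arrays with the selecting contrast, so its test is not independent of the gene's choice. Zygote minus egg cell was -1.81 ± 0.43 (SE; interval -2.73 to -0.88), 3.50-fold lower in zygotes, and did not pass the threshold (limma adjusted p = 0.169). Zygote minus egg cell shares its egg arrays with the selecting contrast, which was itself taken with array quality weights, so its tests are not independent of the choice of the gene. With those weights it was -1.96 ± 0.36 (SE; limma adjusted p = 0.0110), and without zygote replicate 1 it was -2.12 ± 0.45 (SE; limma adjusted p = 0.0415), in the fits that called 6.78% and 2.79% of probe sets.

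**Figure D2:**
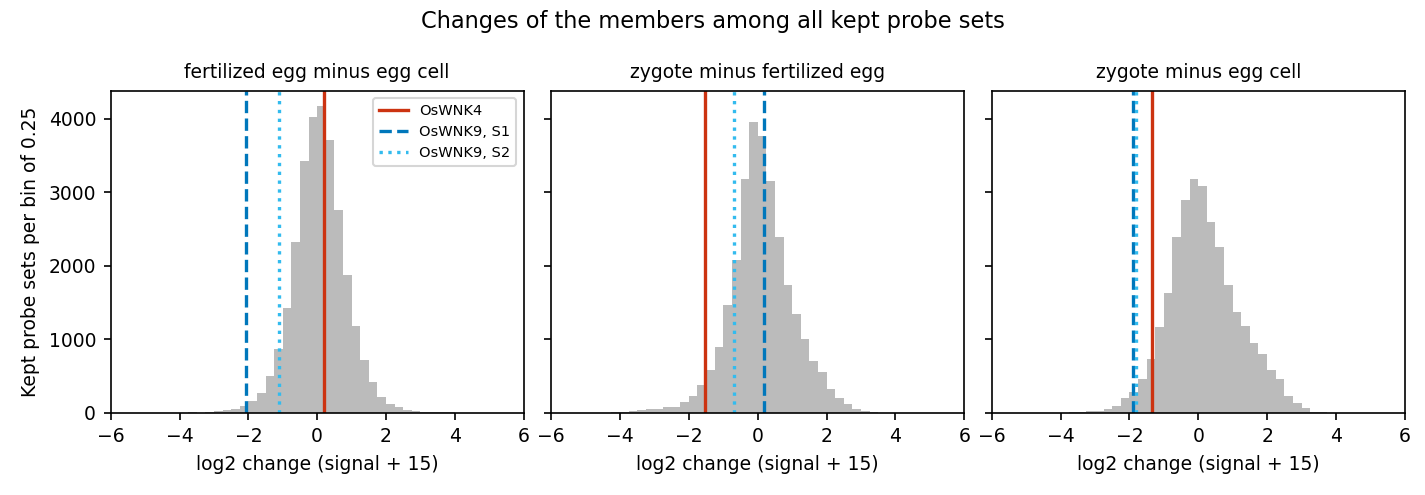
Number of kept probe sets (vertical axis) by log2 change (horizontal axis, bins of 0.25) in each contrast, with vertical lines at OsWNK4 and at the OsWNK9 probe sets S1 and S2. In zygote minus egg cell all 3 lines lie between -1.88 and -1.35, where the median of all kept probe sets is 0.09.

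Against all kept probe sets, 5.47% had a lower change than OsWNK4 in zygote minus egg cell. For OsWNK9 these shares were 1.83% for S1 and 2.18% for S2. That contrast shares arrays with the selecting contrasts, so nothing is read from these ranks. In zygote minus fertilized egg, 56.8% lay below S1 and 15.6% below S2. In fertilized egg minus egg cell, 57.4% lay below OsWNK4, close to the middle of the distribution drawn in the histograms of log2 change. Those ranks also come from arrays shared with the selecting contrasts, so nothing is read from them. The medians over all kept probe sets were 0.06 for fertilized egg minus egg cell, 0.07 for zygote minus fertilized egg and 0.09 for zygote minus egg cell. Among brighter probe sets, with a mean signal at or above the 75th percentile, they were -0.05, -0.10 and -0.18 in that order. OsWNK4 and S2 belong to these brighter probe sets and S1 does not.

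The OsWNK9 probe sets placed the fertilized eggs differently, a difference that was not tested. On S1 they stood below all egg cells and the zygotes overlapped them. On S2 fertilized egg replicate 1, with 9263, lay between egg cell values, while replicates 2 and 3 had 4437 and 2829. The log2 difference S1 minus S2 within an array, taken on signal + 15, was -4.33, -3.82 and -4.90 in egg cells, -6.61, -4.99 and -4.34 in eggs at about 1 hap and -3.95, -5.92 and -3.40 in zygotes, so all stages overlapped. Over the 9 arrays S1 and S2 correlated with Pearson's r = 0.64, OsWNK4 with S1 at 0.22 and OsWNK4 with S2 at 0.53. These are descriptions over arrays that differ in depth of signal and in RNA measures.

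**Figure D3:**
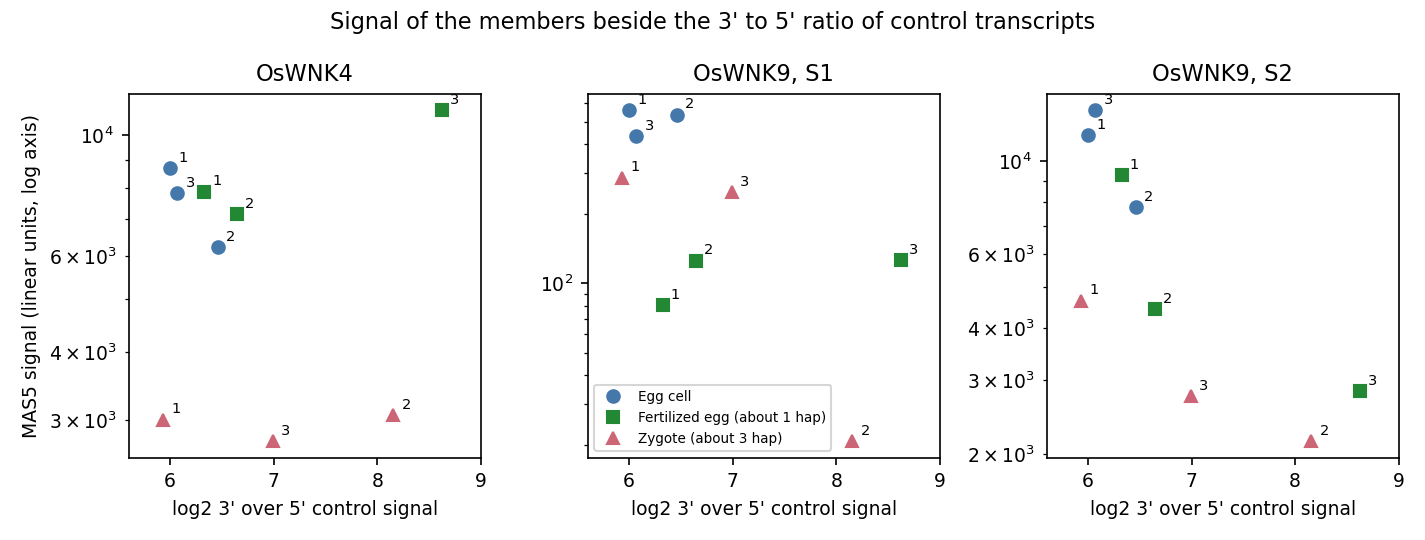
Signal of OsWNK4 and of the OsWNK9 probe sets S1 and S2 (vertical log axis) in each array beside the log2 ratio of 3′ to 5′ control signal (horizontal axis); numbers are replicates. The 3 arrays with the highest ratios, 6.99 to 8.62, have the 3 lowest S2 signals, 2146 to 2829.

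RNA measures moved with S2. Control transcripts are read near their 3′ and 5′ ends, and the log2 of 3′ over 5′ signal grows as labelled RNA loses its 5′ ends. It was highest in fertilized egg replicate 3 (8.62), zygote replicate 2 (8.15) and zygote replicate 3 (6.99). These arrays had the 3 lowest S2 signals, 2829, 2146 and 2751. Zygote replicate 1 had the lowest ratio of all, 5.93, and its S2 signal of 4651 was still below all egg cells, whose ratios were 5.996 to 6.46. For OsWNK4 the array with the highest ratio also had the highest signal, 11106, and the zygotes had 2746 to 3065 over ratios of 5.93 to 8.15. For S1 the lowest value, 20.7, belonged to zygote replicate 2, and the fertilized eggs had 80.2 to 125 over ratios of 6.32 to 8.62. The part of RNA quality in the OsWNK9 differences was not tested.

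The poly-A spike ratio separated the egg arrays from both later stages, as S1 did. With that ratio as a covariate, fertilized egg minus egg cell was -4.71 ± 2.73 for S1 and -0.35 ± 1.64 for S2 (SE, limma), and 0 probe sets passed in that fit, with 1250 at an unadjusted p below 0.05. The ratio did not overlap between egg and later arrays, so the covariate and the stage cannot be told apart.

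The other WNK genes were examined because they share the kinase family. The array carried 9 WNK genes on 14 probe sets. The other 7 genes had 11 probe sets, of which 7, from 6 genes, were kept. None of these 7 passed limma's adjusted threshold in any contrast, beside 0.0455% of all probe sets in fertilized egg minus egg cell, 0% in zygote minus fertilized egg and 0.0699% in zygote minus egg cell. Unadjusted p was below 0.05 for 0, 1 and 2 of the 7 in that order, and for 8.68%, 10.5% and 16.3% of all kept probe sets. Their median log2 changes were 0.11, 0.34 and 0.17, beside 0.06, 0.07 and 0.09 over all kept probe sets, with 4, 5 and 5 of 7 above 0.

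**Figure D4:**
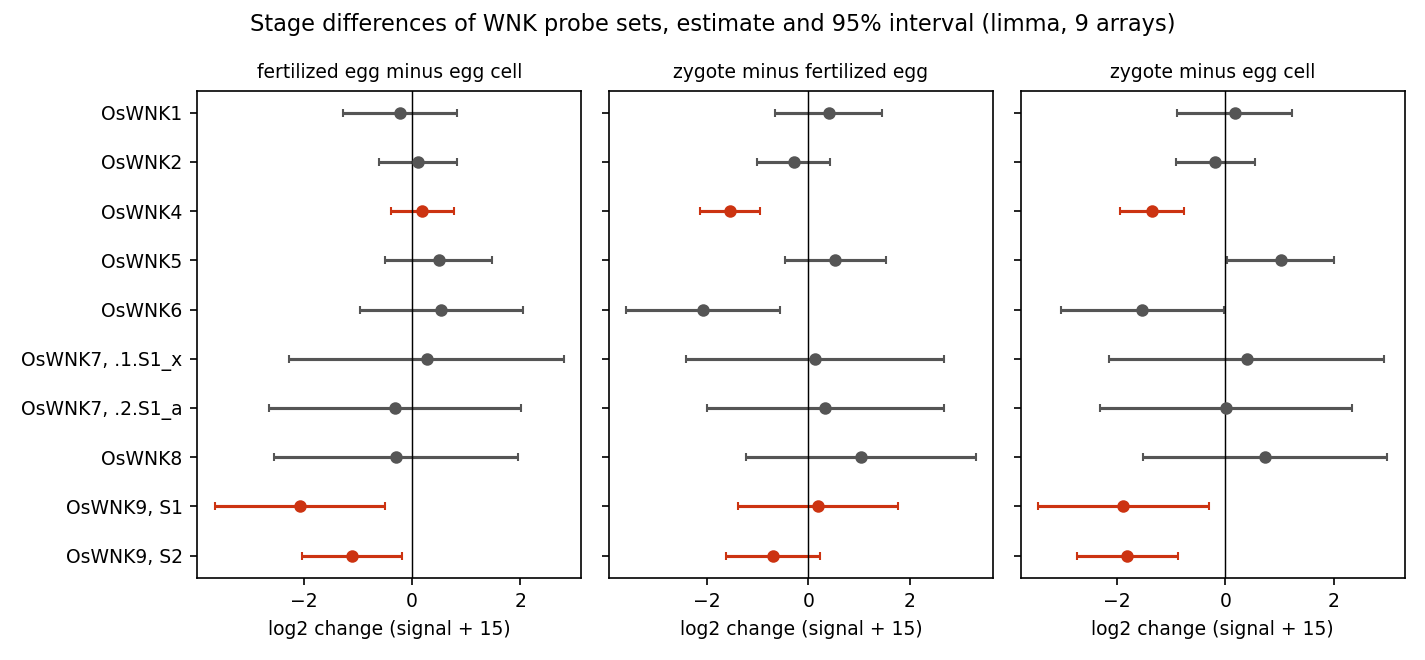
Log2 change of the 10 kept WNK probe sets in each contrast (points) with the 95% interval of limma's fit of 9 arrays (lines); OsWNK4 and OsWNK9 are in red. In zygote minus egg cell the intervals of OsWNK4, OsWNK6 and both OsWNK9 probe sets lie below 0 and that of OsWNK5 above it.

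Among the other family members OsWNK6 had the lowest estimates in both contrasts with the zygote when arrays counted equally, with zygote replicate 2 as its lowest array. Its signal was 1124, 573 and 586 in egg cells, 1207, 866 and 1123 in eggs at about 1 hap and 302, 52.1 and 760 in zygotes. The zygotes lay below the fertilized eggs, as for 6.12% of all kept probe sets, and overlapped the egg cells. Zygote minus fertilized egg was -2.07 ± 0.70 (SE; limma adjusted p = 0.369). Zygote minus egg cell was -1.54 ± 0.70 (SE; limma adjusted p = 0.301). With array quality weights, which counted zygote replicate 2 least, these were -0.93 ± 0.56 and -0.57 ± 0.51 (SE; limma adjusted p = 0.465 and 0.483). A probe set of OsWNK7 then had the lower value in zygote minus egg cell, -0.62.

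OsWNK5 lay the other way. Its signal was 338, 984 and 411 in egg cells, 567, 741 and 931 in eggs at about 1 hap and 1388, 721 and 1208 in zygotes, and egg replicate 2 overlapped the zygotes. The difference zygote minus egg cell was 1.02 ± 0.46 (SE; limma adjusted p = 0.297), and 1.46 ± 0.42 with array quality weights (SE; limma adjusted p = 0.0475). That weighted fit called 6.78% of all kept probe sets, so nothing is read from this call.

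OsWNK1 averaged 1135 ± 127 in egg cells, 991 ± 294 in eggs at about 1 hap and 1561 ± 1254 in zygotes (SD, n = 3 each), with 2996 in zygote replicate 1 alone. The kept probe set of OsWNK2 had 894 ± 60.2, 978 ± 211 and 792 ± 127 in the same order, with overlap between all stages. Its other probe set, below the filter, had 8.69 to 48.4 over all arrays. OsWNK3 had both probe sets below the filter. The probe set ending in A1_at had 47.0, 55.9 and 45.0 in egg cells, 59.4, 52.0 and 64.5 in eggs at about 1 hap and 81.0, 154 and 103 in zygotes. Its zygotes lay above all other arrays, as for 4.20% of all 57194 probe sets, but its percentile within an array overlapped, at 43.5 to 58.7 in zygotes and 41.0 to 54.6 in the other arrays. In the fit without the filter, which held it, no other WNK probe set passed limma's adjusted threshold. The other OsWNK3 probe set had 8.51 to 162 over all arrays.

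OsWNK7 and OsWNK8 were dim. Their 3 kept probe sets spanned 5.40 to 589 over the 9 arrays and correlated with each other at r = 0.85 to 0.91. Names ending in x_at mark probes that can also bind other transcripts, so those signals cannot be assigned to a single gene with certainty. The OsWNK7 probe set ending in a_at has no such mark. In every stage the replicates of all 3 probe sets ranged more than 5-fold. The unkept OsWNK8 probe set had 1.23 to 116.

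Genes with the array profile most like each member were listed by Pearson's r of log2(signal + 15) over 9 arrays, among 2551 kept probe sets with 1 informatively named gene. Closest to OsWNK4 was OsMT-2, a metallothionein that binds metal ions (r = 0.97), with 9871 ± 2539 in egg cells, 11973 ± 2510 in eggs at about 1 hap and 5008 ± 444 in zygotes (SD, n = 3 each). OsDPE1, a disproportionating enzyme of starch metabolism, followed at r = 0.96 with 1746 ± 170, 1937 ± 498 and 784 ± 167 in that order. The bZIP transcription factor OsbZIP37 (r = 0.94) had 419 ± 47.5, 534 ± 321 and 36.1 ± 44.8. The phospholipase gene PLA2-III (r = 0.93) had 7734 ± 1538, 12206 ± 3472 and 2630 ± 930.1. The folate synthesis gene ADCS (r = 0.93) had 118 ± 13.4, 177 ± 34.4 and 37.3 ± 14.8. All 5 thus had their lowest mean in zygotes, which their choice by likeness to OsWNK4 brings with it.

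Closest to S1 of OsWNK9 was CDC2-1, a cyclin-dependent kinase of the cell cycle (r = 0.97), with 4802 ± 394 in egg cells, 2795 ± 392 in eggs at about 1 hap and 2987 ± 1055 in zygotes (SD, n = 3 each). It was followed by Lip-syn (r = 0.96), the sucrose phosphate synthase gene OsSPS4F (0.95), the peptide deformylase gene OsPDF1A (0.95) and OsNMCP1a (0.94), which encodes a nuclear matrix constituent protein. OsPDF1A had 294 ± 13.9, 107 ± 39.8 and 118 ± 57.2 in that order, and OsNMCP1a 677 ± 145, 197 ± 65.2 and 332 ± 271.

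Closest to S2 were OsCASPL4B2, a CASP-like membrane protein gene (r = 0.95), HSP81-3, which encodes an HSP90 chaperone (0.94), TOC75, a channel of the plastid protein import machinery (0.94), NCL1 (0.93) and IAA21, an Aux/IAA repressor of auxin response (0.92). HSP81-3 had 11575 ± 2426 in egg cells, 6619 ± 5247 in eggs at about 1 hap and 3762 ± 3667 in zygotes (SD, n = 3 each). TOC75 had 5335 ± 232, 4287 ± 962 and 3238 ± 414 in that order. IAA21 had 1643 ± 62.9, 979 ± 221 and 852 ± 349. The probe sets of HSP81-3 and NCL1 have names ending in x_at, so those signals cannot be assigned to a single gene with certainty. No gene was among the 5 closest of both OsWNK9 probe sets.

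Genes of the pathways in which WNK kinases act in animals or Arabidopsis were taken as 6 lists with matches on the array, 42 genes and 48 probe sets, of which 41 were kept. Of all kept probe sets, 0.0455% passed limma's adjusted threshold in fertilized egg minus egg cell, 0% in zygote minus fertilized egg and 0.0699% in zygote minus egg cell. None of the 41 did in any contrast, which is near those shares. With array quality weights, which called 4.61% of all kept probe sets in fertilized egg minus egg cell, 3 passed in that contrast. They were OsMAPK6 at 1.69 ± 0.31, MPK11 at -1.09 ± 0.27 and the abscisic acid receptor gene OsPYL11 at -1.42 ± 0.34 (SE; limma adjusted p = 0.00817, 0.0342 and 0.0310), of which OsPYL11 was named after its values were seen. No symbol of the seventh list, the vacuolar proton pump subunits, was matched.

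The clock list held 7 genes on 8 kept probe sets, among them the pseudo-response regulators that resemble the Arabidopsis WNK1 substrate. Unadjusted p was below 0.05 for 1 of 8 in fertilized egg minus egg cell, 2 in zygote minus fertilized egg and 0 in zygote minus egg cell, beside 8.68%, 10.5% and 16.3% of all kept probe sets. The medians were -0.08, 0.28 and 0.19 in that order, beside 0.06, 0.07 and 0.09 for all kept probe sets. On the probe set with the smaller p, OsPRR37 had 564 ± 159 in zygotes and 216 ± 42.4 in fertilized eggs (SD, n = 3 each; 1.31 ± 0.45, SE; limma adjusted p = 0.377). The zygotes lay above, as for 6.64% of all kept probe sets. Its other probe set gave -0.39 ± 0.43 (SE), so the OsPRR37 probe sets disagreed in sign. OsPRR95 had 2310 ± 1168 in fertilized eggs and 5632 ± 678 in egg cells (SD, n = 3 each; -1.43 ± 0.65, SE; limma adjusted p = 0.566). OsPRR73 was closest to the threshold in zygote minus egg cell, at 0.50 ± 0.30 (SE; limma adjusted p = 0.395), with all zygotes above all egg cells, as for 14.0% of probe sets.

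Abscisic acid receptors and SnRK2 kinases, which phosphorylate targets of that hormone, were kept with 11 of 11 genes. OsPYL11 was the only receptor among these 11, and the others were SnRK2 kinases. The medians were -0.35 for fertilized egg minus egg cell, 0.22 for zygote minus fertilized egg and -0.46 for zygote minus egg cell. Unadjusted p was below 0.05 for 3, 1 and 1 of the 11, beside 8.68%, 10.5% and 16.3% of all kept probe sets. OsSAPK9 had 1358 ± 786 in zygotes and 546 ± 240 in fertilized eggs (SD, n = 3 each; 1.24 ± 0.46, SE; limma adjusted p = 0.408). OsSAPK4 had 1243 ± 181 in zygotes and 2090 ± 18.8 in egg cells (SD, n = 3 each; -0.75 ± 0.30, SE; limma adjusted p = 0.270). OsSAPK10 had 118 ± 50.5 in fertilized eggs and 378 ± 206 in egg cells (SD, n = 3 each; -1.50 ± 0.59, SE; limma adjusted p = 0.497).

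The MAP kinase and Raf-like kinase list had 16 genes on 18 kept probe sets, with medians of 0.08, -0.45 and 0.23 in the order of contrasts used above. The genes matched were MAP kinases and the MAP kinase kinase OsMEK1, and no Raf-like kinase was matched. Unadjusted p was below 0.05 for 3, 2 and 3 of the 18, beside the same 8.68%, 10.5% and 16.3% overall. MPK10 had 310 ± 159 in zygotes and 1245 ± 403 in fertilized eggs on the probe set with the smaller p (SD, n = 3 each; -2.02 ± 0.50, SE; limma adjusted p = 0.258), and its other probe set gave -0.99 ± 0.51 (SE). MPK11 had 821 ± 514 in zygotes and 1773 ± 263 in egg cells (SD, n = 3 each; -1.32 ± 0.49, SE; limma adjusted p = 0.266). On the probe set with the smaller p, OsMAPK6 had 6594 ± 1566 in fertilized eggs and 3217 ± 2230 in egg cells (SD, n = 3 each; 1.21 ± 0.47, SE; limma adjusted p = 0.489). Its groups overlapped, while 13.8% of all kept probe sets had all fertilized eggs above all egg cells. Another probe set listed as OsMAPK6 gave 0.09 ± 0.36 (SE). The list held fewer names than genes, so whether both OsMAPK6 probe sets read the same gene was not settled.

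The remaining lists were short. CCC1, a rice cation-chloride cotransporter and so a counterpart of the animal WNK targets, was the only gene matched in its list. CCC2 was searched for and not matched. Of its 2 probe sets CCC1 had 1 kept. On that probe set fertilized egg minus egg cell was 0.02 ± 0.30 (SE). Zygote minus fertilized egg was -0.30 ± 0.30 and zygote minus egg cell -0.28 ± 0.30 (SE), with no adjusted p under 0.631 by limma. RGB1, the G-protein beta subunit, had 3453 ± 1276 in fertilized eggs and 6441 ± 1324 in egg cells (SD, n = 3 each; -0.96 ± 0.45, SE; limma adjusted p = 0.581). Of 4 flowering genes only Hd1, a regulator of the photoperiod response, was kept. It had 287 ± 285 in zygotes and 9.39 ± 11.4 in egg cells (SD, n = 3 each; 3.18 ± 1.03, SE; limma adjusted p = 0.242), with the egg mean below the offset of 15.

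None of the kept probe sets of the genes beside OsWNK4 and OsWNK9 in the RefSeq gene order passed limma's adjusted threshold, with 0.269 as the smallest adjusted p. Over all kept probe sets 0.0455% passed in fertilized egg minus egg cell, 0% in zygote minus fertilized egg and 0.0699% in zygote minus egg cell. For the 3 of 4 neighbours of OsWNK4 with a kept probe set, zygote minus fertilized egg ranged from -1.27 ± 0.83 to 0.15 ± 0.34 over 4 probe sets (SE), against -1.54 ± 0.27 for OsWNK4 itself. For the 3 of 4 neighbours of OsWNK9 with a kept probe set, fertilized egg minus egg cell ranged from -0.31 ± 0.31 to 0.69 ± 0.36 (SE). The lower of these was CBL6, a calcineurin B-like calcium sensor gene, whose zygote minus egg cell was -0.80 ± 0.31 (SE).

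**Figure D5:**
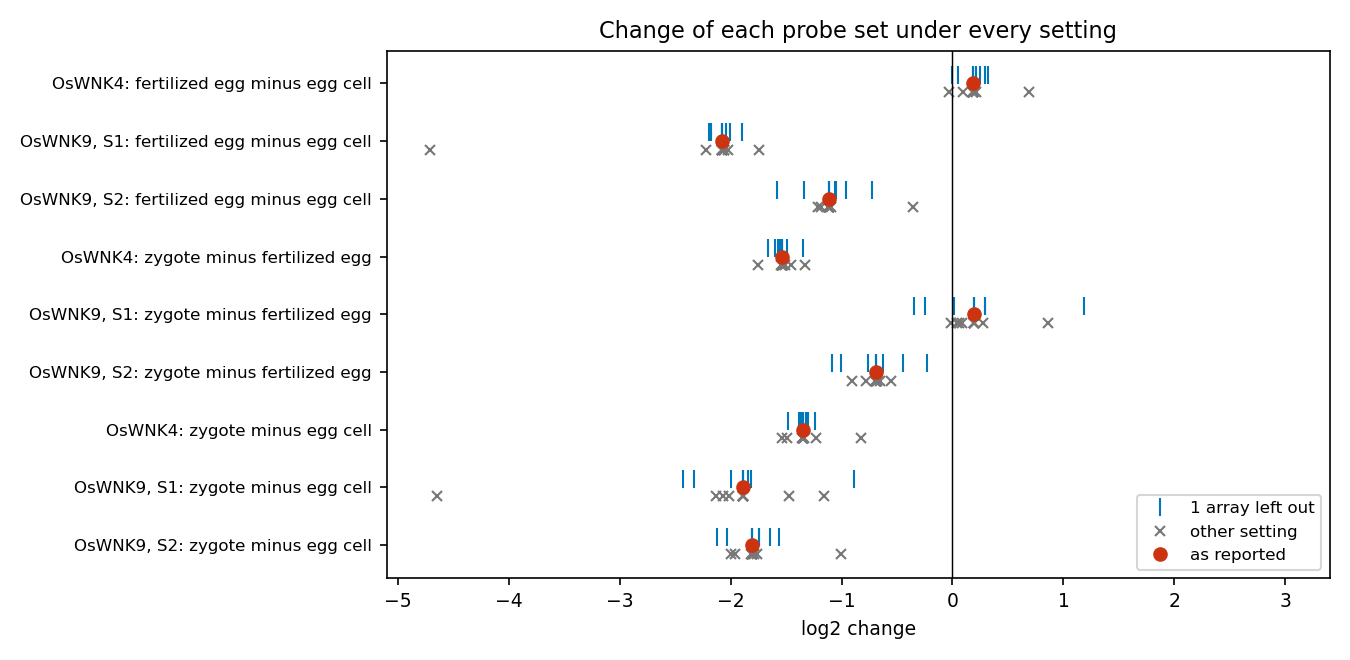
Log2 change (horizontal axis) of each member probe set in each contrast under the reported setting (circles), other settings (crosses) and with 1 array left out (bars). Zygote minus egg cell lies below 0 in every setting shown, from -1.54 to -0.82 for OsWNK4, from -4.65 to -0.89 for S1 and from -2.12 to -1.005 for S2.

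The sign of each difference that selected a gene held in every setting run, as did its counterpart between zygote and egg cell. Each setting refitted arrays that the genes were chosen on, so a kept sign is a description and not support. Over 21 settings zygote minus fertilized egg of OsWNK4 lay between -1.75 and -1.33, and zygote minus egg cell between -1.54 and -0.82. S1 of OsWNK9 lay between -4.71 and -1.75 for fertilized egg minus egg cell over the 20 settings that kept it. S2 lay between -1.58 and -0.35 for that contrast and between -1.08 and -0.23 for zygote minus fertilized egg.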

How the data were processed

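RNA of 9 rice samples from 3 stages was measured on Affymetrix rice arrays. The authors' deposited table holds linear signal intensity values from MAS5 (named in the submitters' processing notes with no version). Of 57381 probe sets, 123 Affymetrix controls and 64 reporters were left out. The rest were put on the scale of log2(signal + 15), where 15 is the rounded 25th percentile of the deposited values, and the 28597 probe sets with a mean signal at or above the median were kept. Fold changes on this scale understate changes of dim probe sets.

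Stages were compared with limma 3.58.1 (R 4.3.3; lmFit, eBayes with trend) on all 9 arrays, with Benjamini-Hochberg adjustment over all kept probe sets at 0.05. The fit was tested on simulated data. Python 3.11.15 with pandas 2.3.3 made the tables, and matplotlib 3.10.9 the plots. Precision is limited by the small number of arrays. Names came from the platform annotation (1 gene for 22436 probe sets, several for 95, none for 34663) and RefSeq assembly ASM3414082v1.

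The members and lists were chosen with earlier results of these data known. Named genes were all WNK probe sets, the 5 probe sets with the highest correlation to each member, and from each pathway list the called members or otherwise the member with the smallest p per contrast. Same-numbered replicates did not deviate together (correlations of -0.27 to 0.14), so replicate numbers were not taken as pairs. Alternatives covered the offset, filter, normalization, variance model, array weights, arrays in the fit, spike covariate and each array left out. A filter on the mean of log2 values was chosen after seeing the data.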

Additional observations from a re-analysis of the deposited data

How the results depend on the processing

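Counts of called probe sets moved with the setting. The signs of the member differences mostly held, while the sizes and adjusted p of several moved. For fertilized egg minus egg cell the count of 13 became 2 with median centring, 0 without a variance trend, 1317 with array weights, 146 with only the 6 arrays compared, 0 with the spike covariate and 1 to 66 with 1 array left out (egg replicate 1 left 2 and egg replicate 3 left 1; fertilized eggs 1, 2 and 3 left 1, 2 and 4; zygote 1 left 46 and zygote 2 left 66). For zygote minus fertilized egg the count of 0 became 10 with weights and 0 to 7 with 1 array left out (zygote 1 left 6 and zygote 3 left 7). For zygote minus egg cell the count of 20 became 12 with quantile normalization, 0 without a trend, 1938 with weights, 7 with only the 6 arrays, 0 with the spike covariate and 1 to 799 with 1 array left out (egg replicates 1, 2 and 3 left 3, 6 and 1; fertilized eggs 1, 2 and 3 left 13, 13 and 10; zygote 1 left 799). Array weights called 1 other WNK probe set, OsWNK5, for zygote minus egg cell, beside 6.78% of all kept probe sets.

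OsWNK4 fertilized egg minus egg cell turned sign with weights (-0.028) and ran from -0.00054 (without fertilized egg replicate 3) to 0.32 with 1 array left out. S1 fertilized egg minus egg cell was -1.75 with an offset of 60 and -4.71 with the spike covariate, and that of S2 was -0.35 with the covariate. S1 zygote minus fertilized egg turned to -0.016 with median centring and ran from -0.35 to 1.19 with 1 array left out. Zygote minus egg cell passed the threshold with weights for OsWNK4 (-1.49) and S2 (-1.96), and ran from -1.48 to -1.24 and from -2.12 to -1.56 with 1 array left out. These tests are not independent of the choice of the genes. The causes were not tested. S1 was not kept by the filter at the 75th percentile. The replicate block gave 14, 0 and 14 called probe sets for fertilized egg minus egg cell, zygote minus fertilized egg and zygote minus egg cell, and changed no call of a member. Without the filter the median of all probe sets was 0.22, 0.27 and 0.52 in these contrasts. S1 was the least precise member in the fit of 9 arrays, with an SE of 0.73, against 0.43 for S2 and 0.27 for OsWNK4. That SE pools all stages. The log2 SD of S1 was 1.72 in zygotes, 0.20 in egg cells and 0.32 in fertilized eggs.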
